A study of Mus musculus with 11 samples.

Results

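Fenestrated endothelial cells line the leaky capillaries of the brain, and 1630 of the 61625 barcodes kept from a preparation of mouse brain vessels (2.65%) were counted as such cells. They were selected on measured values: 500 or more genes, no more than 10% of UMIs from mitochondrial genes (unique molecular identifiers, each standing for 1 captured RNA molecule), at least 3 UMIs of Plvap, at least 2 of Flt1, Emcn, Pecam1 and Esm1 together, and no more than 1 of the barrier transporters Mfsd2a and Slco1c1. Barcodes with over 2 UMIs of the microglial and mural genes P2ry12, Cx3cr1, Vtn and Myh11, or over 1 of the venous genes Ackr1, Sele and Selp, were set aside. The study asked how a mutant human NOTCH3 gene, the cause of the small-vessel disease CADASIL, changes the brain's vessels. It compared 6 R182C-TgN3 mice, whose transgene carries the R182C variant, with 5 WT-TgN3 mice, whose transgene is the normal human gene, so both genotypes express human NOTCH3 beside their own Notch3 and no mouse lacked a transgene. Vessel fragments were taken up with an antibody to CD31 (the product of Pecam1), and each mouse gave 1 library of the 10x Genomics Chromium 3′ assay. The R182C-TgN3 mice were 3 aged 6 months and 3 aged 9 months (4 female, 2 male) and the WT-TgN3 mice 3 aged 6 months and 2 aged 9 months (3 female, 2 male), prepared in 4 batches. No batch held both ages, so age and batch cannot be told apart, and the antibody step sets which cells reached the libraries.

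Brain capillaries are mostly sealed: their endothelium has tight junctions, few vesicles and a set of transporters that together form the blood-brain barrier, kept up by Wnt signals from the surrounding tissue. In a few places, such as the choroid plexus, the circumventricular organs and the pituitary, capillaries instead have fenestrae, small round pores that let hormones and plasma solutes through. The product of Plvap forms the diaphragm across these pores, and their upkeep depends on signalling by vascular endothelial growth factor (VEGF). The preparation does not say from which of these sites a given cell came.

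The libraries held 17550806 to 64215050 UMIs. The fenestrated cells numbered 153, 119, 106, 60 and 60 in R182C-TgN3 mice 1 to 5, with mouse 6 the highest of its genotype, and 111, 216, 122, 129 and 372 in WT-TgN3 mice 1 to 5. Their UMIs, 11439277 in all, were summed per mouse and scaled to counts per 1000000 UMIs of the sum (CPM), and the mouse is the replicate throughout. The comparison class was 30716 barrier endothelial cells, chosen by a mirrored gate (no Plvap UMI, at least 2 of Mfsd2a and Slco1c1, the other limits as above). Depth per cell was close in both classes: the median fenestrated cell held 3432 to 8377 UMIs over the mice and the median barrier cell 3258 to 7698.

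Some libraries stood apart or shared barcodes. WT-TgN3 mouse 5 had more than 1.5 times the fenestrated cells of any other mouse, and 332 of its kept barcodes held at least 20 UMIs of the pituitary hormone genes Gh, Prl, Pomc and Cga, against 0 to 3 in the other 10 libraries. Results that rest on this mouse are given with and without it. Of 65086 distinct barcode sequences, 966 occurred in more than 1 library, and pairs of libraries shared from 5 to 350 of them, most between R182C-TgN3 mice 4 and 5. Of the fenestrated cells, 29 had a barcode also found in another library and 0 were fenestrated cells in both.

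The values that chose the cells are a description of them. The median cell held 12 Plvap UMIs (range 3 to 123), and 1023 of the 1630 held at least 10. Flt1, a VEGF receptor, had a median of 29 UMIs, the sialomucin gene Emcn 14, and Pecam1, an endothelial adhesion gene, 6. Esm1, a secreted proteoglycan made where VEGF acts, had a median of 3, and 505 cells had none. At the edge of the rule, 81 cells had exactly 3 Plvap UMIs and 82 had 4, while 68 barcodes with 2 met every other limit and stayed outside. Of the 1850 kept barcodes with at least 3 Plvap UMIs, 220 were outside the rule: 92 of them only for their barrier transporters, 88 only for microglial or mural UMIs, 16 only for venous UMIs, 0 for too few endothelial UMIs, and the rest on more than 1 count. Among the cells inside, 89 held 1 UMI of Mfsd2a or Slco1c1.

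The label was checked against markers that the rule did not use. Plpp3, which encodes a lipid phosphatase of the cell surface, stood at 3358 ± 633 CPM (SD, n = 11 mice) in the fenestrated cells and 25.2 ± 2.27 in the barrier cells. Its relative Plpp1 stood at 2235 ± 274 against 77.2 ± 7.13 CPM, and Igfbp3, a binding protein for insulin-like growth factors, at 1667 ± 291 against 14.9 ± 3.84. The mouse ranges of the 2 classes lay far apart for all 3 genes. In cells thinned to 2000 UMIs each, so that depth was equal, Plpp3 was found in a mean over the 11 mice of 96.5% of fenestrated cells and 4.48% of barrier cells (99.0% and 12.6% without thinning). The percents of thinned cells below, and those in brackets beside them, are such means, each mouse weighing the same. Vwa1, a matrix gene on the same marker list, went the other way, at 134 ± 24.8 CPM in the fenestrated and 405 ± 55.5 in the barrier cells, lower in 11 of 11 mice. The lipid receptor gene Cd36 was near its limit of detection, at 3.85 ± 6.66 and 0.797 ± 0.562 CPM. Vwa1 thus goes against the label, and Cd36 cannot be judged. The other 10 listed markers were higher, but those that the rule used, Plvap, Esm1 and Emcn, are no check of the label. Plvap was higher by choice of the classes.

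The cells were not uniform. A set of 296 held at least 3 UMIs of Meis2, a homeobox transcription factor gene, and Igfbp5, an insulin-like growth factor binding protein gene, as a sum; the pair was chosen after the values were seen. WT-TgN3 mouse 5 supplied 216 of them, 58.1% of its fenestrated cells, and the other 10 mice 3 to 14 each (1.39% to 15%). The barrier class held 18 such cells. Without them, mouse 5 had 156 fenestrated cells and lay inside the range of the other mice.

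Within mouse 5, the Meis2 and Igfbp5 cells differed widely from its other fenestrated cells, as pools without replicates. Plvap, which the rule requires in every cell, was at 3473 CPM against 2048. Esm1 was at 76.0 against 983 CPM, and 195 of the 216 cells had no Esm1 UMI, so most of the Esm1-negative cells of that mouse were among them. Flt1 was at 1743 against 5847 CPM, Plpp3 at 856 against 3392 and Gpihbp1, which anchors lipoprotein lipase to capillaries, at 37.1 against 283. The retinol-binding protein gene Rbp7 was at 12.6 against 587 CPM and the carbonic anhydrase gene Car4 at 5.66 against 354. Higher in the Meis2 and Igfbp5 cells were Mmrn1, a multimerin of vessel walls, at 302 against 1.86 CPM, the clotting factor gene F8 at 376 against 0, the fatty acid carrier gene Fabp4 at 496 against 4.65, and Nr2f2, a transcription factor gene of veins and lymphatics, at 459 against 32.6. Cldn5, the main claudin of the barrier, was at 198 against 38.2 CPM, still far under its level in barrier cells. Of the pituitary hormone genes, Gh was at 191 against 219 CPM and Prl at 134 against 70.7, and 4 fenestrated cells of the mouse held at least 20 UMIs of such genes.

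The cells that met the same limit in the other 10 mice, pooled, lay between these groups of mouse 5 in Meis2 (928 CPM), Esm1 (551), Mmrn1 (3.41), F8 (14.8) and Nr2f2 (278), while Dcn, a fibroblast proteoglycan gene, was at 578 against 10.7 in the cells of mouse 5. Some genes went opposite ways: the glypican gene Gpc6 was at 0.628 CPM in these cells of mouse 5 and 118 in its other fenestrated cells, and at 711 and 19.8 in the pools of the other mice. The cell adhesion gene Lsamp was at 3.14 against 133 in mouse 5 and 858 against 15.5 elsewhere, and the transcription factor gene Dach1 at 0.628 against 77.3 and 365 against 27.1. The cells chosen by Meis2 and Igfbp5 therefore differed between mouse 5 and the pool of the other mice in these genes, without replicates. Deeper cells weigh more in a pool. In R182C-TgN3 mouse 6 the 9 such cells had a median of 23548 UMIs, against 5661 in its other fenestrated cells.

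**Figure D1:**
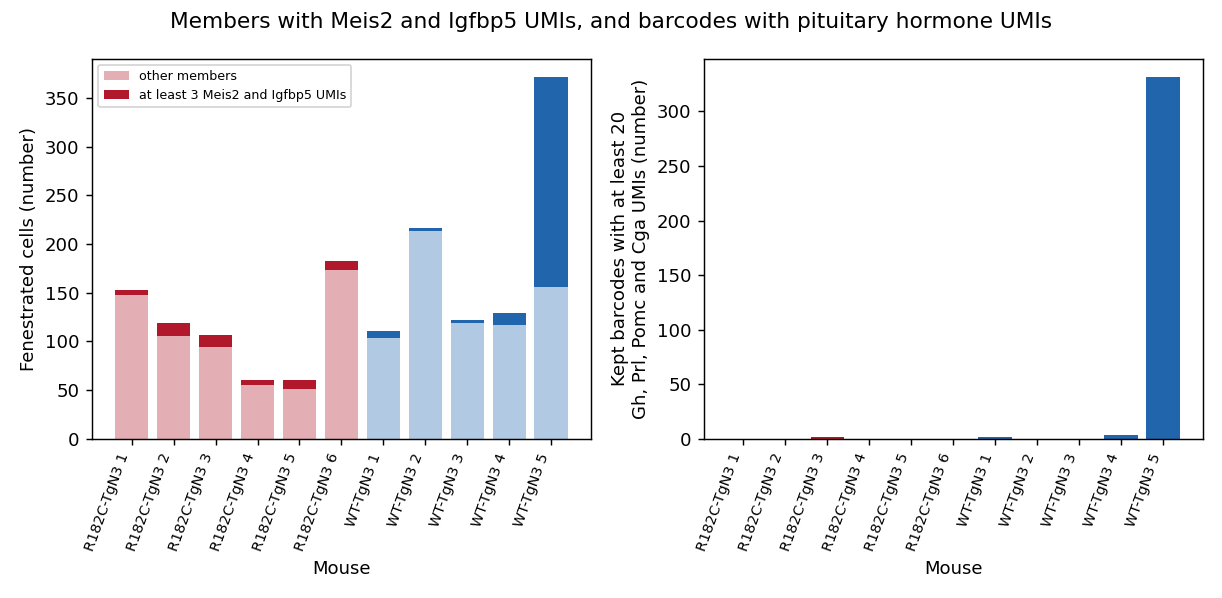
Bars show, for each of the 11 mice, the number of fenestrated endothelial cells with and without at least 3 Meis2 and Igfbp5 UMIs, and the number of kept barcodes with at least 20 UMIs of Gh, Prl, Pomc and Cga. WT-TgN3 5 holds 216 of the 296 Meis2 and Igfbp5 cells and 332 of the 337 barcodes with pituitary hormone UMIs.

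The first comparison asked whether the mutant transgene goes with fewer or more fenestrated cells. Among all kept barcodes their share was 1.25% at the lowest, 1.80% at the median and 3.19% at the highest in the R182C-TgN3 mice, and 2.53%, 3.71%, 1.94%, 3.24% and 5.38% in WT-TgN3 mice 1 to 5. The lowest mice were R182C-TgN3 mice and the highest was WT-TgN3 mouse 5, and the groups overlapped. The means were 2.07% ± 0.786 (SD, n = 6) and 3.36% ± 1.32 (n = 5), a difference of -1.29 points (2-sided exact permutation test over 462 splits, p = 0.0671). Without mouse 5 the difference was -0.780 points (exact permutation p = 0.152), and without the Meis2 and Igfbp5 cells of all mice it was -0.733 (p = 0.128). It was past the threshold without R182C-TgN3 mouse 6 (-1.51, exact permutation p = 0.0397) or without WT-TgN3 mouse 3 (-1.64, p = 0.0286).

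Among fenestrated and barrier cells only, the share was 2.92% at the lowest, 3.44% at the median and 5.64% at the highest in R182C-TgN3, and 5.21%, 6.03%, 4.49%, 5.07% and 10.2% in WT-TgN3 mice 1 to 5. R182C-TgN3 mice 2 and 6 lay among the WT-TgN3 mice, and the other 4 lay below all of them. The means were 3.93% ± 1.11 (SD, n = 6) and 6.19% ± 2.28 (n = 5), a difference of -2.26 points (2-sided exact permutation test, p = 0.0303). Without the Meis2 and Igfbp5 cells the difference was -1.28 points (exact permutation p = 0.0390). Without WT-TgN3 mouse 5 it was -1.27 (exact permutation p = 0.0905), and leaving out R182C-TgN3 mouse 1, 3, 4 or 5 gave -2.06, -2.11, -2.15 and -2.19 (p = 0.0714 each). Within batches the difference was -2.11 (permutation within batches, exact p = 0.0833), without R182C-TgN3 mouse 3, which was alone in its batch, and with like-numbered mice as a block it was -2.11 as well (exact p = 0.125). With at least 5 Plvap UMIs in the rule it was -1.97 (exact permutation p = 0.0649). In cells thinned to 2000 UMIs, where the Plvap minimum was also lowered to 1, it was -2.63 (exact permutation p = 0.0779). The lower share in R182C-TgN3 mice therefore kept its direction in every setting, but not its side of the threshold in these 9. The share counts cells that passed the antibody step, so fewer such cells in the brain and fewer recovered cannot be told apart.

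**Figure D2:**
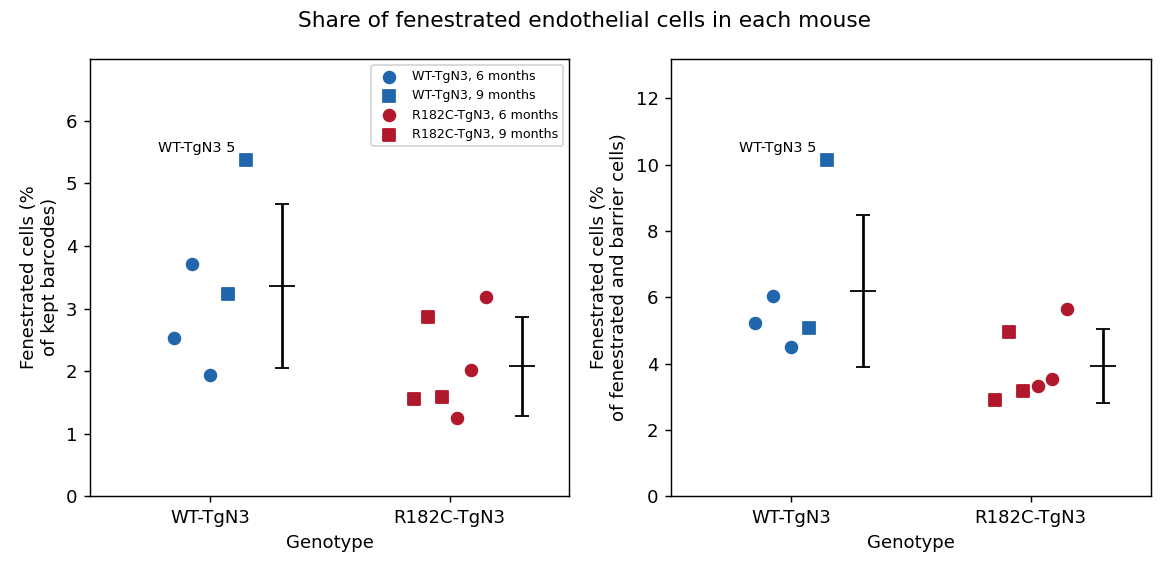
The share of fenestrated endothelial cells in each mouse, in percent, among all kept barcodes and among fenestrated and barrier endothelial cells, by genotype; circles are mice aged 6 months, squares mice aged 9 months, and lines the mean ± SD. In the second share 4 of the 6 R182C-TgN3 mice lie below all 5 WT-TgN3 mice, and WT-TgN3 5 is the highest at 10.2%.

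The next comparison asked which genes differ between fenestrated and barrier cells of the same mouse. Since Plvap, Mfsd2a and Slco1c1 chose both classes, it is given with no test. A gene counted as higher or lower when its mean ratio was at least 2-fold and its direction the same in all 11 mice, among the 9524 genes with a mean of at least 10 CPM in either class. By this count 763 genes were higher (8.01%) and 701 lower (7.36%). These shares stand beside every count of a gene list below. Ratios below are the mean over the 11 mice of the log2 ratio of CPM plus 1, whose median over all 9524 genes was -0.03. With the Meis2 and Igfbp5 cells left out, 1372 of the 1464 genes were called again, 92 were not, and 149 others were.

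Of 12 listed markers of fenestrated endothelium, 11 could be counted, 10 higher and 1 lower, with a median log2 ratio of 6.74. Without Plvap, whose direction the gates fixed, 9 of 10 were higher and 1 lower, with a median of 5.78. Plvap stood at 2167 ± 288 CPM (n = 11), with its barrier level at 0 by choice of the class. Its lowest, median and highest mice were at 1846, 2059 and 2348 CPM in R182C-TgN3, and the WT-TgN3 mice were at 2069, 2109, 2335, 2145 and 2899. WT-TgN3 mouse 5 was the highest. Esm1 was at 1163 ± 344 CPM against 0.317 ± 0.235, and WT-TgN3 mouse 5 was the lowest at 442, a value that became 983 without its Meis2 and Igfbp5 cells. As a mean of the mice, Esm1 was found in 60.4% of thinned fenestrated cells and 0.0720% of barrier cells (74.8% and 0.187% without thinning). Over all 1630 fenestrated cells together, not thinned, 1125 held it (69.0%). It counts towards the endothelial UMIs that the rule asks of both classes. In the annotation of build GRCm38, Plvap lies at chr8:71497765-71511752 on the minus strand and Esm1 at chr13:113209659-113218098 on the plus strand. Emcn was at 2589 ± 252 against 535 ± 37.8 CPM, a log2 ratio of 2.27. Exoc3l2, an exocyst-related gene that acts in VEGF receptor transport, was at 414 ± 102 against 1.15 ± 0.703 CPM, a log2 ratio of 7.62.

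The pore shares parts with caveolae, the flask-shaped vesicles of endothelium. Of 8 genes of caveolae, 1 was higher (beside 8.01% of all genes) and 0 lower, with a median log2 ratio of 0.06. Cav1, the coat's core protein gene, was at 229 ± 51.0 against 350 ± 34.0 CPM (log2 ratio -0.64, lower in 11 of 11 mice), and Cavin1, its adaptor, at 202 ± 32.6 against 243 ± 22.7 (-0.28). The gene that counted was Ehd4, an ATPase of membrane traffic, at 1062 ± 120 against 97.6 ± 11.2 CPM (log2 ratio 3.43).

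The transporters of the barrier were low almost throughout. Of 23 listed genes, 20 were lower and 0 higher, with a median log2 ratio of -3.88. Mfsd2a and Slco1c1, whose direction the gates fixed, are among them; of the other 21, 18 were lower and 0 higher, with a median of -3.77. Slc2a1, the glucose transporter of brain capillaries, was at 51.5 ± 9.15 CPM against 1027 ± 93.9, and its mouse ranges, 34.1 to 66.7 and 927 to 1175, did not touch. Bsg, a partner of the lactate transporters, was at 363 ± 82.1 against 8721 ± 732 CPM, Slco1a4, an organic anion carrier, at 70.4 ± 31.8 against 2434 ± 421, Abcb1a, the P-glycoprotein drug pump, at 121 ± 25.9 against 1582 ± 146, and the transferrin receptor gene Tfrc at 20.5 ± 7.29 against 335 ± 49.3. The 3 that did not count were Slco2b1 (log2 ratio 0.44), the insulin receptor gene Insr (0.99) and the amino acid transporter chain Slc3a2 (-0.67). After thinning, Slc2a1 was found in 9.42% of fenestrated and 83.7% of barrier cells (25.2% and 95.4% without thinning), and Bsg in 47.2% and 99.9% (79.8% and 99.8%).

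Among 12 genes of tight junctions, 6 were lower and 0 higher, beside 7.36% and 8.01% of all genes. Their median log2 ratio was -1.71. Cldn5 was at 81.9 ± 41.5 CPM against 4889 ± 443, a log2 ratio of -6.04, and thinned cells held it in 9.47% and 99.6% (19.3% and 99.6% without thinning). Ocln, the occludin gene, was at 3.94 ± 3.20 against 268 ± 17.8 CPM (-6.13), and the tricellular junction gene Lsr had a log2 ratio of -5.04. The scaffold gene Tjp1 (-2.16), Cgnl1 (-2.08) and the polarity gene Pard3 (-1.88) were lower by less. Among the 6 that did not count, Cdh5, the VE-cadherin gene, had a log2 ratio of 0.53, Esam -0.05 and F11r 0.31.

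Wnt signalling maintains the barrier. Of 20 genes, 13 were lower and 3 higher, with a median log2 ratio of -2.16. The lower ones held the transcription factors Lef1, at 23.4 ± 18.1 against 977 ± 91.8 CPM (log2 ratio -5.60), Tcf7 (-4.08), Foxq1 (-5.43) and Sox17 (-2.22), and the feedback inhibitors Axin2 (-4.23), Apcdd1 (-4.82), Nkd1 (-6.20) and Notum (-4.97). The receptor Fzd6 (-2.10), the co-receptor Lrp6 (-1.45) and the receptor partners Adgra2 (-2.47) and Reck (-1.91) were lower as well. Lef1 was found in 2.97% of thinned fenestrated cells and 78.4% of barrier cells (6.27% and 93.0% without thinning). The 3 higher genes were the receptor Fzd4, at 207 ± 41.7 against 90.2 ± 9.88 CPM (log2 ratio 1.17), its partner Tspan12, at 243 ± 21.8 against 72.8 ± 7.10 (1.72), and the transcriptional repressor Tcf7l1, at 224 ± 35.4 against 72.9 ± 10.3 (1.60). Receptor components were thus found on both sides.

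Of 17 genes of VEGF and angiopoietin signalling 14 could be counted, 5 higher and 1 lower, beside 8.01% and 7.36% of all genes. Their median log2 ratio was 0.88. Kdr, the main VEGF receptor, was at 2570 ± 367 CPM against 465 ± 49.4 (log2 ratio 2.46) and its co-receptor Nrp1 at 2340 ± 467 against 239 ± 38.3 (3.27), both higher in 11 of 11 mice. Flt1, the decoy receptor, was level at 5762 ± 933 against 5543 ± 498 CPM (0.04). Flt4, the receptor for VEGF-C, had a log2 ratio of 1.29, the ligand gene Vegfa 2.41 from low levels (17.4 ± 7.20 against 2.33 ± 0.821 CPM), and Angpt2, the antagonist of Tek, 2.08. The ligand gene Vegfc was lower, at 42.8 ± 44.2 against 194 ± 41.0 CPM (-2.72).

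Notch signalling was followed because the transgene is a Notch receptor. Of 16 listed genes 12 could be counted, 2 higher and 1 lower, beside 8.01% and 7.36% of all genes, with a median log2 ratio of 0.28. The feedback gene Nrarp was at 94.9 ± 17.7 CPM against 17.8 ± 4.18 (log2 ratio 2.36) and the ligand gene Dll4 at 122 ± 25.6 against 59.2 ± 9.85 (1.01), while the target Hey1 was lower (-1.39). The endothelial receptors were a little higher without counting: Notch1 had a log2 ratio of 0.68 and Notch4 of 0.89. The transgene was near the limit of detection, at 1.08, 0, 0, 2.83, 0 and 4.39 CPM of human NOTCH3 in R182C-TgN3 mice 1 to 6 and 1.74, 0, 0, 0 and 0.375 in WT-TgN3 mice 1 to 5. It was found in 0.0517% of thinned fenestrated cells and 0.262% of barrier cells (0.517% and 0.676% without thinning), so no expression can be read from it, and mouse Notch3, a gene of mural cells, was found in 0.758% and 0.580% (1.61% and 1.63%).

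Listed genes of basement membrane and matrix were more often higher than lower. Of 21 matrix genes, 10 were higher and 2 lower, beside 8.01% and 7.36% of all genes. Their median log2 ratio was 0.83. Col15a1, a collagen at the outer face of basement membranes, was at 271 ± 34.8 against 0.631 ± 0.322 CPM (log2 ratio 7.39), and Col13a1, a membrane-bound collagen, at 448 ± 78.5 against 0.249 (8.49). The network collagen genes Col4a1 (1.87) and Col4a2 (1.89), the laminin chain Lamb1 (4.33), the linker Nid1 (3.44) and perlecan, Hspg2 (3.16), were higher as well. The 2 lower genes were fibronectin, Fn1, at 24.5 ± 19.1 against 785 ± 99.3 CPM (-5.18), and von Willebrand factor, Vwf, at 10.0 ± 6.69 against 372 ± 73.7 (-5.44).

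Genes of lipid uptake were mostly higher: of 12, 8 could be counted, 7 higher and 0 lower, beside 8.01% and 7.36% of all genes. Their median log2 ratio was 2.60. Gpihbp1 was at 359 ± 122 CPM against 0.192 ± 0.148 (log2 ratio 8.15), and was found, as a mean of the mice, in 40.3% of thinned fenestrated and 0.0445% of barrier cells (59.6% and 0.122% without thinning). Its ligand gene Lpl, lipoprotein lipase, was at 41.1 ± 29.8 against 0.733 ± 0.412 CPM (4.21), and the lipid-sensing receptor gene Pparg had a log2 ratio of 3.66. Fabp4 varied widely, at 53.8 ± 87.4 CPM, with WT-TgN3 mouse 5 at 298, WT-TgN3 mouse 4 at 124 and the other mice at 41.4 or less.

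Adhesion and inflammation genes were level or lower, though the choice of cells capped Ackr1, Sele and Selp at 1 UMI together in both classes. Of 14, 10 could be counted, 0 higher and 5 lower, with a median log2 ratio of -1.36: the leukocyte adhesion genes Vcam1 (-3.42) and Icam1 (-1.67), the lipase inhibitor Angptl4 (-2.87), the interleukin receptor Il1r1 (-1.73) and the chemokine Cxcl12 (-1.54). Beside the 7.36% of all genes that were lower and the 8.01% that were higher, 2 of 15 interferon response genes were lower, Ifit1 (-1.78) and Ifit3 (-1.57), and 0 higher. Of 17 genes induced by tissue dissociation, 1 was higher, Hspa1b (1.36), and 1 lower, Atf3 (-1.33), beside the same shares, and the median was -0.14. Of 40 nuclear genes of oxidative phosphorylation, 0 were higher and 0 lower, with a median of -0.12. Of 15 genes of endothelial identity, 4 were higher and 0 lower, with a median of 0.65: Clec14a (2.09), Mmrn2 (1.25), Robo4 (1.17) and the transcription factor Sox18 (1.03).

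The 10 genes with the highest ratios, chosen by this very contrast, held Plvap and Esm1 and 8 others. Piezo2, a stretch-gated ion channel gene, was at 735 ± 114 CPM against 1.14 ± 0.998 (log2 ratio 8.53). Rbp7 was at 516 ± 245 against 0.294 ± 0.126 (8.51), Hecw2, a ubiquitin ligase gene, at 639 against 1.36 (8.18), and the butyrophilin-like gene Btnl9 at 396 against 0.113 (8.44). The others were Col13a1, Gpihbp1, Car8, a carbonic anhydrase relative, at 444 against 0.548 (8.15), and Slc43a3, a purine base transporter gene, at 373 against 0.747 (7.67).

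The 10 lowest ratios were those of Slco1c1 (-7.46), the thyroid hormone carrier that the rule used, and of Frmd5, Gkn3, Ndnf, Ccdc141, Stxbp6, Tnfrsf19, Pglyrp1, Slc38a5 and Edn3, from -7.13 to -6.20. Frmd5, a cytoskeletal linker gene, was at 9.48 ± 14.3 CPM against 886, and WT-TgN3 mouse 3 was the highest at 50.5. Tnfrsf19, a receptor gene of the tumour necrosis factor family, was at 2.48 ± 2.75 against 216 CPM, and Slc38a5, a glutamine transporter gene, at 1.39 ± 1.24 against 160.1. Stxbp6, a gene for a partner of the vesicle fusion machinery, was at 15.6 ± 45.5 against 270.0 CPM, with WT-TgN3 mouse 5 at 153 and the other 10 mice at 4.86 or less.

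**Figure D3:**
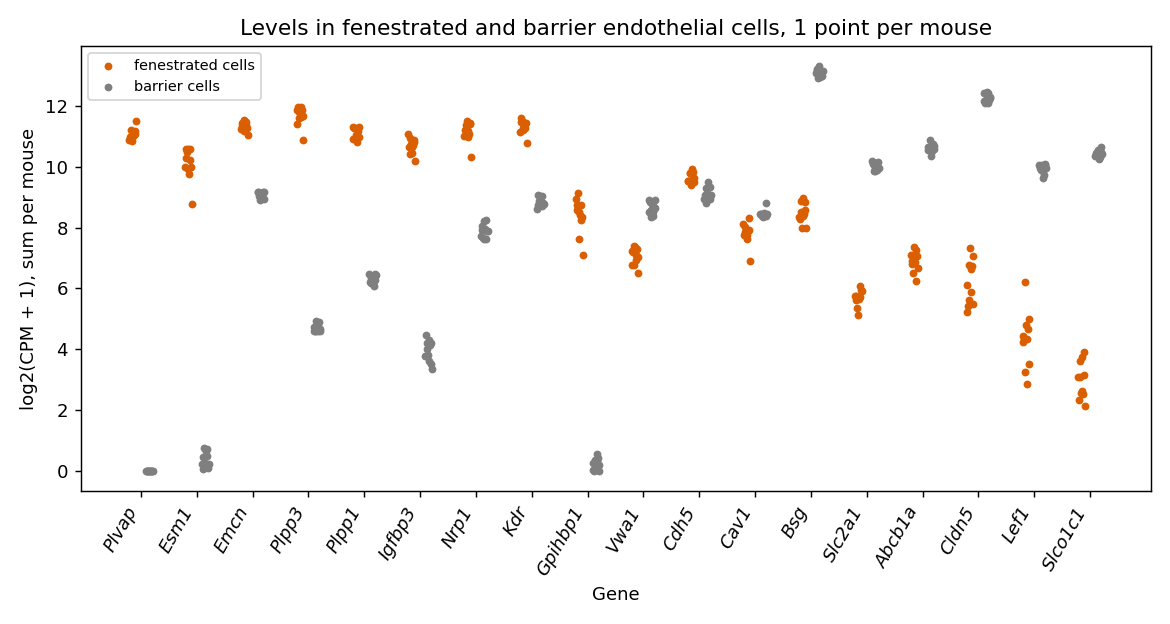
Levels of 18 genes as log2(CPM + 1) in fenestrated and in barrier endothelial cells, 1 point for each of the 11 mice in each class. The points of the 2 classes lie far apart in Plvap, Esm1, Plpp3, Cldn5 and Lef1 and close in Cdh5 and Cav1.

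The promoters of genes that set the classes apart were read for the core letters of the site bound by Lef1 and its relatives, because Lef1 was low in the fenestrated cells; the letters CTTTGA were chosen after the values were seen and searched on both strands. The sequences are from RefSeq, build GRCm38.p6, 300 bases around each gene's start. Emcn (chr3:137340828-137341127, plus strand) and Slco1c1 (chr6:141524104-141524403, plus strand) held no match, and Esm1 (chr13:113209409-113209708, plus strand) and Mfsd2a (chr4:122961139-122961438, minus strand) held 1 each; Plvap had no entry. Of the 10 genes with the highest ratios 5 had a promoter in the table and 2 held a match, of the 10 lowest 3 of 10 did, and of all 32851 promoters 5257 did (16.0%). Matches were thus found on both sides of the contrast, in a marker of each class, and describe only the letters in these windows. The promoters of Esm1 and Mfsd2a are printed 5′ to 3′ with the match in capitals.
Esm1: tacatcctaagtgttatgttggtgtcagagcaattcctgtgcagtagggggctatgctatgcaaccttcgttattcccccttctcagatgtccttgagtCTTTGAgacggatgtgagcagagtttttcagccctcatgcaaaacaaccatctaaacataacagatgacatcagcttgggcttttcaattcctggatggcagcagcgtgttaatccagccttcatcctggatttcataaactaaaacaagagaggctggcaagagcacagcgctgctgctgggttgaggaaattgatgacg
Mfsd2a: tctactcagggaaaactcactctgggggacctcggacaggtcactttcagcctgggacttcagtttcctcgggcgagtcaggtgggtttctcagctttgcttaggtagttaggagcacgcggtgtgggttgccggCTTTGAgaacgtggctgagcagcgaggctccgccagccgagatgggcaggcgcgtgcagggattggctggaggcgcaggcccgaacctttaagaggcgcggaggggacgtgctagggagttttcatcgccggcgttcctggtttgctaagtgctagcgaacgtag

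RNA of other cells was measured in the fenestrated cells by marker lists, as summed CPM per mouse (lowest, median and highest of 11). The choroid plexus epithelium, next to fenestrated capillaries, had all 15 of its genes detected, at 165, 265 and 455 CPM with Ttr the most abundant, against 64.5, 359 and 2040 in barrier cells. Ttr was found in 20.7% of thinned fenestrated cells and 21.1% of barrier cells (45.3% and 42.9% without thinning), and its level was 119 ± 71.0 against 549 ± 562 CPM, higher in 5 mice and lower in 6. Pituitary genes, 8 of 11 detected with Lhb, Fshb and Pitx1 at 0, were at 4.04, 9.05 and 326 CPM with Gh the most abundant, and in barrier cells at 35.6, 46.8 and 4831; WT-TgN3 mouse 5 was the highest in both classes. Ependymal genes, 3 of 6 detected with Tmem212, Ccdc153 and Rsph1 at 0, reached 32.2 CPM, most from Rarres2.

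Pericyte genes, 7 of 7, reached 194 CPM (Rgs5 the most abundant), smooth muscle genes, 6 of 6, 65.8 (Myl9), and neuronal genes, 5 of 5, 14.5 (Meg3), against highest values of 57.4, 143 and 154 in barrier cells. The medians were 91.3, 28.1 and 6.58 CPM in fenestrated cells and 41.5, 21.4 and 5.55 in barrier cells. The barrier values of 143 and 154 were those of R182C-TgN3 mouse 4 and WT-TgN3 mouse 5 alone, with the next mouse at 64.1 and 8.11. Fibroblast genes, 6 of 6, were at 0, 16.2 and 518 CPM with Dcn the most abundant. They were highest in WT-TgN3 mouse 1 and R182C-TgN3 mouse 6, followed by WT-TgN3 mouse 4 at 198 and R182C-TgN3 mouse 4 at 147. At least 3 UMIs of them were held by 15 fenestrated cells, and barrier cells were at 1.22, 2.61 and 9.97 CPM. Erythroid genes, 5 of 5, were at 4.82, 10.97 and 11797 CPM with Hbb-bs the most abundant, high in R182C-TgN3 mice 3 and 5 and WT-TgN3 mouse 3, which each held 1 of the 3 fenestrated cells with at least 50 globin UMIs. Barrier cells were at 2372, 6039 and 17964 CPM, and 611 of them held at least 50 globin UMIs.

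Astrocyte genes, 5 of 5, were at 122, 161 and 252 CPM against 35.8, 41.1 and 47.9 in barrier cells, nearly all of it Gja1, a gap junction gene, at 168 against 23.0. Venous genes, 6 of 6, were at 39.9, 71.5 and 345 CPM, most from Nr2f2 and highest in WT-TgN3 mouse 5, arterial genes, 7 of 7, at 311, 334 and 606 (Efnb2), and genes of blood leukocytes, 6 of 7 with Cd3e at 0, at 0, 9.73 and 1135 (S100a9), high in R182C-TgN3 mouse 1 only. In barrier cells these lists were at 226, 301 and 382 CPM (venous), 363, 477 and 719 (arterial) and 4.84, 10.8 and 19.0 (leukocytes). In the count of levels, the lists of other cells had 42 genes that could be counted, 4 higher (9.52%) and 7 lower (16.7%), beside the 8.01% and 7.36% of all genes: Aqp1 of choroid plexus, Gja1 of astrocytes and the arterial genes Efnb2 and Gja4 were higher, and Pomc, Alas2, Slc1a3, Vcam1, Gkn3, Bmx and Hey1 lower. The part of these cells in the results was not tested.

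The comparison of genotypes asked which genes the R182C variant changes in fenestrated cells. By the edgeR quasi-likelihood test with Benjamini-Hochberg adjustment, 0 of 8396 genes passed an adjusted p of 0.05 (0%), while 243 were under an unadjusted p of 0.05, 86 higher and 157 lower in R182C-TgN3. DESeq2 passed 0 genes, with 139 under an unadjusted p of 0.05. None of the 14 listed pathways passed a gene either. Their median log2 fold changes, beside 0.01 for all genes, were 0.16 for the fenestrated markers, 0.05 for caveolae, 0.00 for barrier transporters, -0.03 for tight junctions, 0.03 for Wnt genes, -0.05 for VEGF genes and 0.02 for Notch genes. They were 0.08 for matrix, 0.10 for lipid uptake, 0.09 for adhesion and inflammation, 0.06 for interferon, 0.19 for dissociation stress, 0.09 for oxidative phosphorylation and -0.02 for endothelial identity.

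Of the genes that the rule used, the log2 fold changes of R182C-TgN3 over WT-TgN3, with their standard errors, were -0.11 (0.14) for Plvap, 0.13 (0.14) for Emcn and 0.41 (0.26) for Esm1, as a description of the cells chosen. Without WT-TgN3 mouse 5 they were -0.04 (0.13), 0.05 (0.13) and 0.21 (0.19), and without the Meis2 and Igfbp5 cells 0.00 (0.13), 0.08 (0.12) and 0.29 (0.16). Esm1 was at 976, 1346 and 1549 CPM in the lowest, median and highest R182C-TgN3 mouse and at 865, 1187, 1521, 1012 and 442 in the WT-TgN3 mice, so that the groups overlapped. The genes with the lowest p did not pass. Tmeff1, a transmembrane gene with follistatin-like domains, was at 13.7, 18.2 and 20.5 CPM in the lowest, median and highest R182C-TgN3 mouse and at 10.5, 6.18, 2.02, 9.37 and 9.38 in the WT-TgN3 mice, with no overlap (log2 fold change 1.21, SE 0.28, adjusted p 1.00). Mrps11, of the mitochondrial ribosome, was at 8.49, 12.3 and 15.1 against 20.9, 20.6, 24.2, 22.6 and 27.0 CPM, again with no overlap (-0.84, SE 0.20, adjusted p 1.00). Nfkbia, the inhibitor of NF-kB, was at 343, 406 and 501 against 302, 337, 335, 298 and 325 CPM (0.43, SE 0.13, adjusted p 1.00), and Stum (1.44, SE 0.42) and Ppcdc, of coenzyme A synthesis (-1.02, SE 0.30), completed the 5.

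Polg2, which the study names in microglia and which encodes a subunit of the enzyme that copies mitochondrial DNA, was at 79.9, 88.9 and 127 CPM in the lowest, median and highest R182C-TgN3 mouse and at 157, 115, 119, 39.0 and 60.4 in the WT-TgN3 mice. The WT-TgN3 mice aged 6 months were high and those aged 9 months low, and the R182C-TgN3 mice overlapped the younger of them. Its log2 fold change was 0.03 (SE 0.28) and took the opposite sign without R182C-TgN3 mouse 4 (-0.05), WT-TgN3 mouse 4 (-0.19) or WT-TgN3 mouse 5 (-0.14). It was found in 16.1% of thinned fenestrated and 11.6% of barrier cells (37.4% and 27.7% without thinning).

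Whether the genotype acts differently in fenestrated and in barrier cells was tested directly, as the interaction of class and genotype with mouse as a term. The edgeR quasi-likelihood test passed 0 of 13390 genes (0%), with 447 under an unadjusted p of 0.05, and DESeq2 passed 0, with 255. Without the Meis2 and Igfbp5 cells, edgeR passed 2. Dcn had a log2 difference of -6.40 (SE 0.97, edgeR adjusted p 0.00931) and the adhesion gene Vcam1 of -2.76 (SE 0.48, adjusted p 0.0376); over the alternatives their adjusted p ran from these values to 1.00. With all cells the differences were -2.56 and -0.15 (edgeR adjusted p 1.00 for both), and the lowest p, not passing, belonged to Skap1, a T cell adaptor (-3.18), the glypican gene Gpc4 (-2.95), Mrps11 (-0.85), Tmeff1 (1.17) and the chemokine gene Ccl5, whose 151.5 CPM in WT-TgN3 mouse 3 and 2.63 in mouse 5 stood beside 0 in the other 9 mice.

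In that setting, fenestrated cells held Dcn at 0, 1.87, 0, 0, 0 and 0.860 CPM in R182C-TgN3 mice 1 to 6 and at 199.6, 0, 10.4, 45.8 and 21.4 in WT-TgN3 mice 1 to 5. Vcam1 was at 3.33, 3.74, 1.70, 0, 8.96 and 5.16 against 78.3, 12.7, 10.4, 16.2 and 25.1 CPM, with no overlap. For Dcn, WT-TgN3 mouse 2 was at 0 like 4 of the R182C-TgN3 mice. Dcn is the leading gene of the fibroblast list, whose sum in all fenestrated cells was 517.7 CPM in WT-TgN3 mouse 1 and 501.7 in R182C-TgN3 mouse 6, and the part of fibroblast RNA in this result was not tested.

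Age was compared as 9 minus 6 months with genotype and sex as terms. The edgeR quasi-likelihood test passed 0 of 8976 genes (0%), with 628 under an unadjusted p of 0.05 and a lowest adjusted p of 0.173. DESeq2 passed 11, with 454 under an unadjusted p of 0.05. Among them Il31ra, Grik1, Xlr5a, Gstp1, Cntnap2, Pde6a, Eno1 and Srsf5 were lower at 9 months, and Hspa8 and Ptpru higher. The change of Ptpru, a receptor phosphatase gene, was smaller without WT-TgN3 mouse 5: its edgeR log2 fold change was 1.61 (adjusted p 0.252), 0.85 without that mouse (adjusted p 0.883) and 0.52 without the Meis2 and Igfbp5 cells (adjusted p 0.895). With no filter on low counts it passed (1.63, edgeR adjusted p 1.10e-08). Il31ra, a cytokine receptor chain, was at 131, 241 and 374 CPM in the lowest, median and highest of 6 mice aged 6 months and at 50.6, 68.3, 148, 57.0 and 48.0 in the 5 aged 9 months (edgeR log2 fold change -1.88, SE 0.31, adjusted p 0.173). It passed in edgeR without R182C-TgN3 mouse 3 (-2.24, adjusted p 0.00399), without the Meis2 and Igfbp5 cells (-1.94, adjusted p 0.00560), without cells with fibroblast or globin UMIs (-1.92, adjusted p 0.0322) and with no filter on low counts (-1.87, adjusted p 3.45e-13), and not without WT-TgN3 mouse 5 (-1.83, adjusted p 0.464). A single older mouse, R182C-TgN3 mouse 3, overlapped the younger ones, and it was alone in its batch. Barrier cells of the same mice showed the same pattern, with 121, 245 and 341 CPM against 43.7, 49.9 and 123 at the lowest, median and highest, so the difference was found in both classes.

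Gstp1, a glutathione transferase gene whose reads may also fit its near copy Gstp2, was at 19.2, 27.5 and 54.9 CPM at 6 months and 1.08, 7.23 and 13.6 at 9 months (lowest, median, highest; edgeR log2 fold change -2.20, SE 0.38, adjusted p 0.173), with no overlap, and at 12.9, 23.0 and 48.6 against 5.00, 8.29 and 13.3 in barrier cells. In edgeR it passed without the Meis2 and Igfbp5 cells (-2.43, adjusted p 0.00560), without cells with fibroblast or globin UMIs (-2.14, adjusted p 0.0445) and with no filter on low counts (-2.18, adjusted p 4.82e-08), and not without WT-TgN3 mouse 5 (-2.51, adjusted p 0.464). Cyp26b1, which breaks down retinoic acid, was at 10.1, 20.4 and 48.1 CPM against 40.7, 81.2 and 480.2 (2.81, SE 0.50, adjusted p 0.173). WT-TgN3 mouse 5 was the highest at 480.2, and at 69.8 without its Meis2 and Igfbp5 cells, still above every younger mouse. The log2 fold change was 1.96 without that mouse (edgeR adjusted p 0.670) and 1.90 without the Meis2 and Igfbp5 cells (adjusted p 0.0857). It passed without cells with fibroblast or globin UMIs (2.78, edgeR adjusted p 0.0380) and with no filter on low counts (2.82, adjusted p 7.09e-16). Cntnap2, a neurexin-like adhesion gene, was at 3.49, 9.52 and 25.5 against 0, 0.750 and 1.08 CPM, with no overlap (-3.98, SE 0.73, adjusted p 0.173). It passed in edgeR without cells with fibroblast or globin UMIs (-4.14, adjusted p 0.0445) and with no filter on low counts (-4.00, adjusted p 6.78e-05), and not without WT-TgN3 mouse 5 (-4.39, adjusted p 0.670). Pdgfa, a growth factor gene, was at 14.1, 19.8 and 24.3 against 31.2, 35.9 and 88.5 CPM with no overlap (1.18, SE 0.24, adjusted p 0.252). Its log2 fold change was 0.75 without WT-TgN3 mouse 5 (edgeR adjusted p 0.998) and 0.58 without the Meis2 and Igfbp5 cells (adjusted p 0.856), and it passed with no filter on low counts (1.19, adjusted p 0.000256). Polg2 was at 84.1, 117 and 157 against 39.0, 79.9 and 92.7 (-0.83, SE 0.22, adjusted p 0.462), and passed in 1 of 17 alternatives (adjusted p 0.00327).

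Sex was compared as male minus female with genotype and age as terms, and the edgeR quasi-likelihood test passed 6 of 8976 genes (0.0668%), with 407 under an unadjusted p of 0.05. All 6 lie on the X or Y chromosome. Xist, the RNA that silences an X chromosome, was at 477, 523 and 651 CPM in the lowest, median and highest of 7 females and at 0 in all 4 males (edgeR adjusted p 7.24e-09), and Tsix, whose gene overlaps Xist on the opposite strand, was at 22.7, 33.4 and 54.3 CPM in the females and at most 2.83 in the males (adjusted p 2.67e-05). Ddx3y, a Y-linked helicase gene, was at 111, 116, 82.4 and 108 CPM in the males and between 0 and 0.375 in the females (edgeR adjusted p 5.66e-10). The demethylase gene Uty, at 60.5 to 87.7 CPM in males (adjusted p 3.09e-05), the translation factor gene Eif2s3y, at 25.5 to 57.0 (adjusted p 0.000246), and the demethylase gene Kdm5d, at 14.4 to 34.0 (adjusted p 0.0118), were at 0 in all 7 females. The labelled sex matched these genes in 11 of 11 mice. The adjusted p of Kdm5d, over its alternatives between 7.01e-13 and 0.138, missed the threshold without each of the 4 males.

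Among autosomal genes Lpl came nearest. It was at 90.0, 56.6, 68.0 and 80.4 CPM in the 4 males and at 6.06, 23.7 and 53.4 in the lowest, median and highest of the 7 females, with no overlap (log2 fold change 1.90, SE 0.33, edgeR adjusted p 0.0552). It passed in 6 of 17 alternatives, among them DESeq2 and the settings without the Meis2 and Igfbp5 cells or without the cells that held fibroblast or globin UMIs, and its adjusted p over the 17 ran from 4.64e-10 to 0.331. Barrier cells held Lpl at 1.55 CPM or less in both sexes. By DESeq2 the autosomal genes Ism1 (adjusted p 0.00297) and Vwa3a (0.0485) also passed, higher in males. Pcdh9 (DESeq2 adjusted p 0.00562), Tnfrsf11a (0.00730) and the globin gene Hbb-bs (0.0167) passed as lower in males. Summed erythroid genes were at 6643, 11797 and 778 CPM in R182C-TgN3 mice 3 and 5 and WT-TgN3 mouse 3, all female. Each of these held 1 fenestrated cell with at least 50 globin UMIs, and every other mouse was at 15.7 CPM or less. None of these autosomal genes passed the main edgeR test. Without the Meis2 and Igfbp5 cells edgeR passed Ism1 (adjusted p 0.0304), Vwa3a (0.0270) and Pcdh9 (0.0304), but not Tnfrsf11a (0.163) or Hbb-bs (0.293). Without cells with fibroblast or globin UMIs edgeR passed Ism1 (adjusted p 0.0350) and Tnfrsf11a (0.0212), but not Vwa3a (0.0567) or Pcdh9 (0.139). With no filter on low counts edgeR passed all of them.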

How the data were processed

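The deposited counts are raw UMI counts for 32287 features in 66658 barcodes, which the authors made with Cell Ranger 7.0.0 on the mm10 mouse reference with the human NOTCH3 gene added. They were used as deposited, at 17550806 to 64215050 UMIs per library. The 61625 kept barcodes, the fenestrated cells and the barrier cells were chosen by the UMI limits given at the start of the results. The members, comparisons and gene lists were chosen with earlier results of these data known. The authors' cell annotation was not used here.

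Counts were summed per mouse and class. The tests left out Gm and Rik models and the ribosomal and mitochondrial genes, a filter taken from the study's methods (21119 genes left), and used edgeR 4.0.16 (TMM, filterByExpr, quasi-likelihood) in R 4.3.3 with Benjamini-Hochberg adjustment and a threshold of 0.05. Mice needed at least 20 cells of a class, and all 11 had them. Genotype was tested alone, age with genotype and sex, sex with genotype and age, and the interaction with mouse as a term. Shares were compared by exact permutation over mice (462 splits), and levels described as log2 of CPM plus 1. Cells were also thinned to 2000 UMIs, which left out 53 fenestrated and 1437 barrier cells. For the thinned shares the Plvap minimum was 1 in place of 3.

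Alternatives were DESeq2 1.42.0, no filter on low counts, at least 1000 genes or 50 cells, at most 5% mitochondrial UMIs, a Plvap minimum of 2 or 5, thinning, batch or covariate terms, pairs of like-numbered mice as a block, a pseudocount of 5, each mouse left out, and 56 fenestrated cells with a high doublet score left out (3279 of the kept barcodes had one). Those chosen after seeing the data left out the Meis2 and Igfbp5 cells, the cells with at least 3 fibroblast or 50 globin UMIs, or the shared barcodes.

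The text names the genes of the rule, the 10 highest and 10 lowest ratios at 50 CPM or more, genes past a test or the 5 with the lowest p, NOTCH3, Notch3 and Polg2, and members of 27 gene lists. The lists cover fenestrated markers, caveolae, barrier transporters, tight junctions, Wnt, VEGF and Notch signalling, matrix, lipid uptake, adhesion and inflammation, interferon, dissociation stress, oxidative phosphorylation, endothelial identity and 13 other kinds of cell. The plan for naming genes, fixed before any count was seen, also held Milr1 and Nfe2l3, which are not the genes the study names and are not reported. The genes that set the Meis2 and Igfbp5 cells apart, the genes given for age beyond the 5 with the lowest p, and Lpl for sex were chosen after their values were seen. Python 3.11.15 with numpy 2.4.6, pandas 2.3.3, scipy 1.17.1, scikit-learn 1.9.0 and matplotlib 3.10.9 did the rest.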

Additional observations from a re-analysis of the deposited data

Results flagged for a closer look

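Each value here lay far from those of the other mice of its genotype, by the ratio of its gap to the nearest mouse over the whole range of the genotype. Of 152 groups examined over 77 measures 25 held such a mouse, and 7 of the 25 were WT-TgN3 mouse 5. The cut-off marks about 1 in 20 groups when values are normally spread and independent. Several measures lay near the limit of detection, and some were chosen after their values were seen. The count can therefore not be read against that share. No explanation was tested.

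WT-TgN3 mouse 5 stood apart in the share of fenestrated cells among fenestrated and barrier cells (10.2%, next 6.03%), and in the percent of them with Meis2 and Igfbp5 UMIs (58.1%, next 9.30%). It also stood apart in summed pituitary hormone genes (326 CPM, next 17.4), in the collagen gene Col13a1 (289.6 CPM, the lowest, next 494), and in Stxbp6 (153 CPM, next 4.12), Cyp26b1 (480.2 CPM, next 81.2) and the growth factor gene Pdgfa (88.5 CPM, next 35.9). Of its kept barcodes of all kinds, 332 held at least 20 UMIs of Gh, Prl, Pomc and Cga, against 3 or fewer in each other library.

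WT-TgN3 mouse 3 was the highest of its genotype in summed erythroid genes (778 CPM, next 15.7), the pericyte gene Vtn (6.06 CPM, next 1.74), mouse Notch3 (12.1 CPM, next 2.75), Frmd5 (50.5 CPM, next 8.71), Tnfrsf19 (8.08 CPM, next 2.75), the T cell adaptor gene Skap1 (28.3 CPM, next 8.71) and the chemokine gene Ccl5 (152 CPM, next 2.63). WT-TgN3 mouse 1 was the highest in human NOTCH3 (1.74 CPM, next 0.375) and WT-TgN3 mouse 2 in Ppcdc (26.8 CPM, next 14.8).

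R182C-TgN3 mouse 6 was the highest of its genotype in summed ependymal (32.2 CPM, next 5.62), fibroblast (501.7 CPM, next 147) and venous genes (252 CPM, next 96.2), and the lowest in Flt1 (4923 CPM, next 5926). R182C-TgN3 mouse 5 was the highest in arterial genes (606 CPM, next 378) and Tnfrsf19 (7.30 CPM, next 2.15), mouse 4 in pituitary hormone genes (22.6 CPM, next 10.2), mouse 1 in genes of blood leukocytes (1135 CPM, next 33.2) and mouse 2 in Col13a1 (550.2 CPM, next 431).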

How the results depend on the processing

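Of 149 values of the summary results under an alternative, 128 stayed the same (by direction and side of the threshold, or for values with no test by the spread between mice, or for counts within 1.5 times), 10 moved in size, 9 no longer passed and 2 newly passed. Of 1080 values of named genes 1041 stayed the same, 17 moved in size, 4 no longer passed, 15 newly passed and 3 changed sign. The lower share of fenestrated cells in R182C-TgN3 kept its sign throughout, from -1.64 to -0.780 points of kept barcodes and from -2.69 to -1.27 of fenestrated and barrier cells when each mouse was left out in turn (exact permutation p 0.0286 to 0.152 and 0.0159 to 0.0905). The second share lost its significance with at least 5 Plvap UMIs (-1.97, exact permutation p 0.0649). It also lost it when thinned to 2000 UMIs with the Plvap minimum lowered to 1 (-2.63, exact permutation p 0.0779), where both choices changed together. The same held when permuted within batches (-2.11, exact p 0.0833). It held too with like-numbered mice of an age as a block, which drops R182C-TgN3 mouse 3 (-2.11, exact p 0.125, where 5 pairs cannot go below 0.0625). Profiles of like-numbered mice correlated at -0.281 to 0.145 over 3603 genes and other pairs at -0.292 to 0.307. Of 10 mice, 1 correlated best with its like-numbered partner. These 5 pairs, most of opposite sex, are too few to decide whether the numbers pair the mice. No gene passed for genotype in 27 alternatives, and Polg2 changed sign in 3 of them (-0.05, -0.19 and -0.14; -0.19 to 0.24 over the mice left out). The interaction gave 2 genes without the Meis2 and Igfbp5 cells. Age gave 11 genes with DESeq2, 201 with no filter on low counts, 3 without the Meis2 and Igfbp5 cells, 4 without cells with fibroblast or globin UMIs, and 0 to 1 with a mouse left out. Sex gave 13, 118, 15 and 14 genes in the same settings and 5 to 8 with a mouse left out. Levels gave 1465 to 1530 genes with a mouse left out and 1293 with a pseudocount of 5. The cause of these shifts was not tested. The 60 cells of R182C-TgN3 mice 4 and 5 set the depth, 353386 and 411114 UMIs, at which their low genes were measured.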
